A study of Mus musculus with 12 samples.

Results

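The Ugt, Gst and Sult genes encode the conjugating enzymes of the liver. They were taken as every transcript whose RefSeq identifier matched a symbol starting with Ugt1, Ugt2, Ugt3, Gsta, Gstm, Gstt, Gstp, Gstz, Gstk, Gsto or Sult, with the FPKM (the fragments of a transcript scaled to its length and to the mapped fragments of the library) summed over the transcripts of a gene. Of 63 such genes in the table, 54 were above 0 in at least 1 mouse (15 Ugt, 22 Gst and 17 Sult genes, with 61 transcripts), out of 17303 genes above 0 and 24394 genes in all. The other 9 genes, listed at 0 in every mouse, were Ugt1a10, Ugt1a2, Ugt1a5, Ugt1a7c, Ugt1a9, Sult1c1, Sult2a4, Sult2a6 and Sult6b2.

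RNA-seq and FAIRE-seq, which uses formaldehyde to recover DNA that is free of nucleosomes, were performed on the same livers of wild-type male C57BL/6J mice. Control mice (Ctl) ate standard chow for 28 weeks and had no surgery. Sham and VSG mice were put on a diet with 60 kcal% fat at 8 weeks of age, which lasted 14 weeks before surgery and 14 weeks after it, apart from a liquid diet in the first postoperative days. Vertical sleeve gastrectomy (VSG) removed about 80% of the stomach along its lateral side, whereas in the Sham operation the stomach was only isolated and pressed with forceps. Each group had 2 mice, so that Ctl differs from the other groups in both diet and operation, and VSG differs from Sham in the operation alone.

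Conjugation makes drugs, steroids, bilirubin and other hydrophobic molecules soluble enough to be excreted in bile or urine. UDP-glucuronosyltransferases (Ugt) attach a sugar acid, glutathione S-transferases (Gst) attach glutathione to reactive electrophiles, and sulfotransferases (Sult) attach a sulfate group. The nuclear receptors CAR and PXR, the dioxin receptor Ahr and the oxidative stress factor Nrf2 are known regulators of many of these genes in hepatocytes.

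The table gives no read counts, and the number of transcripts above 0 lay between 16039 and 17222 per mouse. The most frequent ratio between low FPKM values of a transcript in different mice put the relative depth at 0.676 to 1.56 times that of Ctl mouse 1, with Sham mouse 1 the shallowest. A bulk liver profile cannot tell fewer cells of a type from less RNA per cell. The 9 hepatocyte markers at hand were all detected, with a summed FPKM of 19720 to 28720 in every mouse. Sums of the Kupffer cell markers lay between 35.4 and 344, of the sinusoidal endothelial markers between 18.1 and 72.8, of the stellate cell markers between 26.7 and 129, of the cholangiocyte markers between 30.7 and 186, of the neutrophil markers between 5.74 and 47.5, and of the T and B cell markers between 0.489 and 4.33.

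Each of the 3 families of conjugating enzymes had its lowest sum in Sham mouse 2. Together the 54 genes took 1.59% and 1.68% of all FPKM in Ctl, 1.19% and 0.499% in Sham, and 1.05% and 1.43% in VSG mice. The summed FPKM of the Gst genes was 5279 and 5024 in Ctl, 4380.5 and 1281 in Sham, and 3237 and 3818 in VSG mice. The Ctl mice therefore had the highest Gst sums, and the Sham mice lay on either side of the VSG mice. The Sult sum was 401 and 452 in Ctl, 286 and 102.2 in Sham, and 397 and 536 in VSG mice, with both Sham mice below the other 4. The Ugt sum was 1449 and 1582.5 in Ctl, 1432 and 760.3 in Sham, and 1492 and 2165 in VSG mice. Again both Sham mice were the lowest, although Sham mouse 1 was close to Ctl mouse 1.

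**Figure D1:**
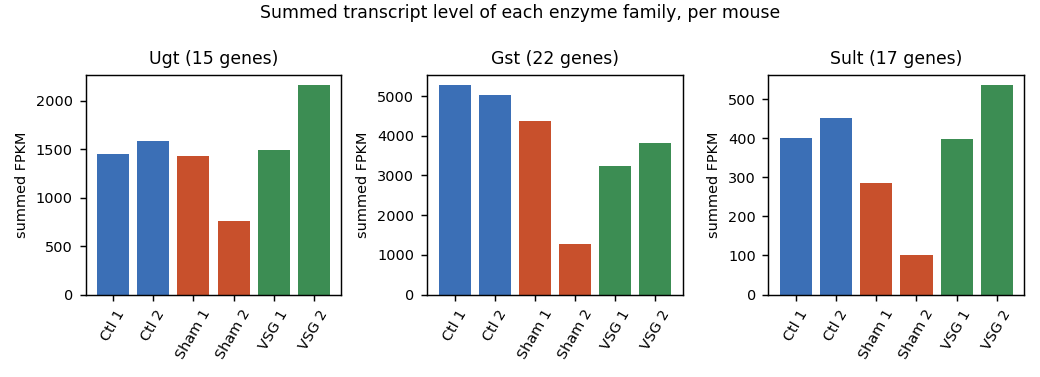
Summed FPKM of the Ugt, Gst and Sult genes (vertical axes, each from 0) in each of the 6 mice, 1 bar per mouse. Sham mouse 2 has the lowest bar of each family, 760.3 for Ugt, 1281 for Gst and 102.2 for Sult.

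Sham mouse 2 stood apart from the other mice in these genes. It had the lowest FPKM of the 6 mice for 24 of the 38 genes that passed the filter of at least 1 FPKM in at least 2 mice (63.2%), whereas 20.5% of all 9833 genes tested were lowest in this mouse. The 2 Sham mice were at least 2-fold apart for 27 of 37 conjugation genes (73.0%), beside 22.5% of all genes. In the Ctl mice the corresponding share was 16.2%, beside 10.4% of all genes, and in the VSG mice 19.4%, beside 16.4%. Sham mouse 2 also had the highest sum of the acute phase genes, 70970 FPKM over 14 of the 20 genes listed, where the other 5 mice had 13700 to 39370 FPKM. Its sum of the pericentral hepatocyte markers was the lowest, 2809 FPKM beside 5032 to 7819 FPKM in the others. The part of these differences in the low conjugation genes was not tested.

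**Figure D2:**
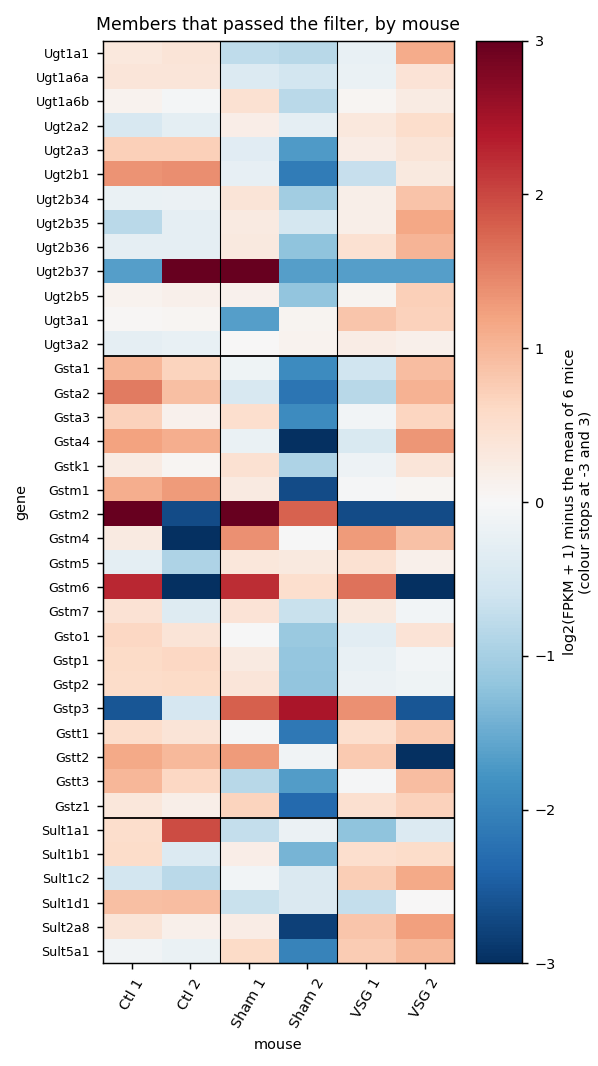
Level of each of the 38 tested conjugation genes (rows, by family) in each mouse (columns), as log2(FPKM + 1) minus the mean over the 6 mice; red is above and blue below that mean. The column of Sham mouse 2 is blue for most genes, and it holds the lowest value of 24 of the 38.

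To ask which conjugation genes differ with the high-fat diet and with VSG, the 3 groups were compared with limma on log2(FPKM + 1) over all 9833 genes, at an FDR of 10%. No conjugation gene passed the FDR in any comparison. In Sham vs Ctl 0 of 38 passed (30 of all genes, 0.305%), in VSG vs Sham 0 of 38 (5 of all genes, 0.0508%) and in VSG vs Ctl 0 of 38 (28 of all genes, 0.285%). With DESeq2 at the same FDR, the paper called more genes in Sham vs Ctl and in VSG vs Sham. The 0 of 38 therefore does not show that these genes are unchanged. At an unadjusted p under 0.05, the conjugation genes numbered 9 in Sham vs Ctl (23.7%, beside 11% of all genes), 6 in VSG vs Sham (15.8%, beside 4.86%) and 5 in VSG vs Ctl (13.2%, beside 9.58%). These counts changed with the mouse left out. The excess over all genes in Sham vs Ctl was absent without Sham mouse 2, and that in VSG vs Sham was absent without VSG mouse 2. Fold changes rested on the choice of Sham mouse. That of Gstz1 on the log2 scale was -2.59 in Sham vs Ctl and 2.91 in VSG vs Sham without Sham mouse 1. Without Sham mouse 2 it was 0.40 and -0.081. Which genes passed the FDR also changed with the Sham mouse left out. The remaining Sham mouse is then assumed to vary like the mice of the other groups, so those genes are not counted. With 2 mice per group the smallest p that an exact permutation test allows is 0.333.

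The direction within each family is a description of the genes tested (13 Ugt, 19 Gst and 6 Sult genes). In Sham vs Ctl the median log2 fold change was -0.20 for Ugt, -1.05 for Gst and -1.06 for Sult genes, beside 0.03 for all genes. Without Sham mouse 2 these medians were 0.26, 0.10 and 0.038, and without Sham mouse 1 they were -0.89, -1.75 and -1.44. The sign of each median in Sham vs Ctl thus rested on Sham mouse 2. In VSG vs Sham the medians were 0.84 for Ugt, 0.40 for Gst and 1.16 for Sult genes, beside 0.08 for all genes, and 0.27, -0.26 and 0.32 without Sham mouse 2 or 1.24, 1.10 and 1.64 without Sham mouse 1. In VSG vs Ctl they were 0.28, -0.36 and 0.60, beside 0.13 for all genes, and leaving out VSG mouse 1 or 2 gave a Ugt median of 0.50 or 0.006, respectively. Leaving out Ctl mouse 1 or VSG mouse 1 brought the Gst median to -0.096 or -0.094, and leaving out Ctl mouse 2 the Sult median to 0.30. The Ugt medians include Ugt2a2, which passed the filter through the VSG mice alone. With a filter at 5 FPKM, which leaves it out, the Ugt median was -0.42 in Sham vs Ctl, 0.88 in VSG vs Sham and 0.21 in VSG vs Ctl. Without the 6 genes listed at 0 in a mouse, the Ugt median was -0.42 in Sham vs Ctl and the Gst median 1.07 in VSG vs Sham. Scaling to the upper quartile brought the median of all genes in VSG vs Ctl to -0.01 and left the sign of each family median as it was.

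Where both mice of a group lay outside the range of the other group, the lower side predominated in Sham vs Ctl. Both Sham mice were below both Ctl mice for 15 of 38 genes (39.5%, beside 20.5% of all genes), namely Gsta1, Gsta2, Gsta4, Gstm1, Gsto1, Gstp1, Gstp2, Gstt1, Gstt3, Sult1a1, Sult1d1, Ugt1a1, Ugt1a6a, Ugt2a3 and Ugt2b1. They were above both Ctl mice for 5 genes (13.2%, beside 25.4%), namely Gstm5, Gstp3, Sult1c2, Ugt2a2 and Ugt3a2. Without Sham mouse 2, 16 genes were below and 15 above both Ctl mice (35.2% and 46.6% of all genes), and without Sham mouse 1, 27 were below and 6 above (38.0% and 39.6% of all genes). Without Ctl mouse 1, 8 were above (35.0% of all genes). Ugt2a2 passed the filter through the VSG mice alone, where it is high, and without it 4 of 37 genes were above in Sham vs Ctl, 12 in VSG vs Sham and 11 in VSG vs Ctl, and 4 had an unadjusted p under 0.05 in VSG vs Ctl. In VSG vs Sham, both VSG mice were above both Sham mice for 13 genes (34.2%, beside 18.5% of all genes), namely Gstt1, Gstt3, Sult1b1, Sult1c2, Sult2a8, Sult5a1, Ugt1a1, Ugt1a6a, Ugt2a2, Ugt2a3, Ugt2b36, Ugt3a1 and Ugt3a2. They were below them for 2 (5.26%, beside 9.77%), Gstm2 and Gstp3, both listed at 0 in a mouse. Without Sham mouse 2 these counts were 13 and 12 (36.2% and 30.5% of all genes), without Sham mouse 1 30 and 3 (41.7% and 25.9%), without VSG mouse 1 24 and 5 (39.1% and 23.0%), and without VSG mouse 2 14 and 4 (32.7% and 23.5%). In VSG vs Ctl, both VSG mice were above both Ctl mice for 12 genes (31.6%, beside 33.8% of all genes) and below them for 8 (21.1%, beside 14.8%). The 12 included Gstz1, Sult2a8, Ugt2b34 and Ugt2b36, and the 8 were Gstm1, Gstp1, Gstp2, Gstt2, Sult1a1, Sult1d1, Ugt2a3 and Ugt2b1. Without VSG mouse 1, 19 were above (52.2% of all genes), and 17 were below without Ctl mouse 2 (22% of all genes) and 18 without VSG mouse 2 (31.3%).

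**Figure D3:**
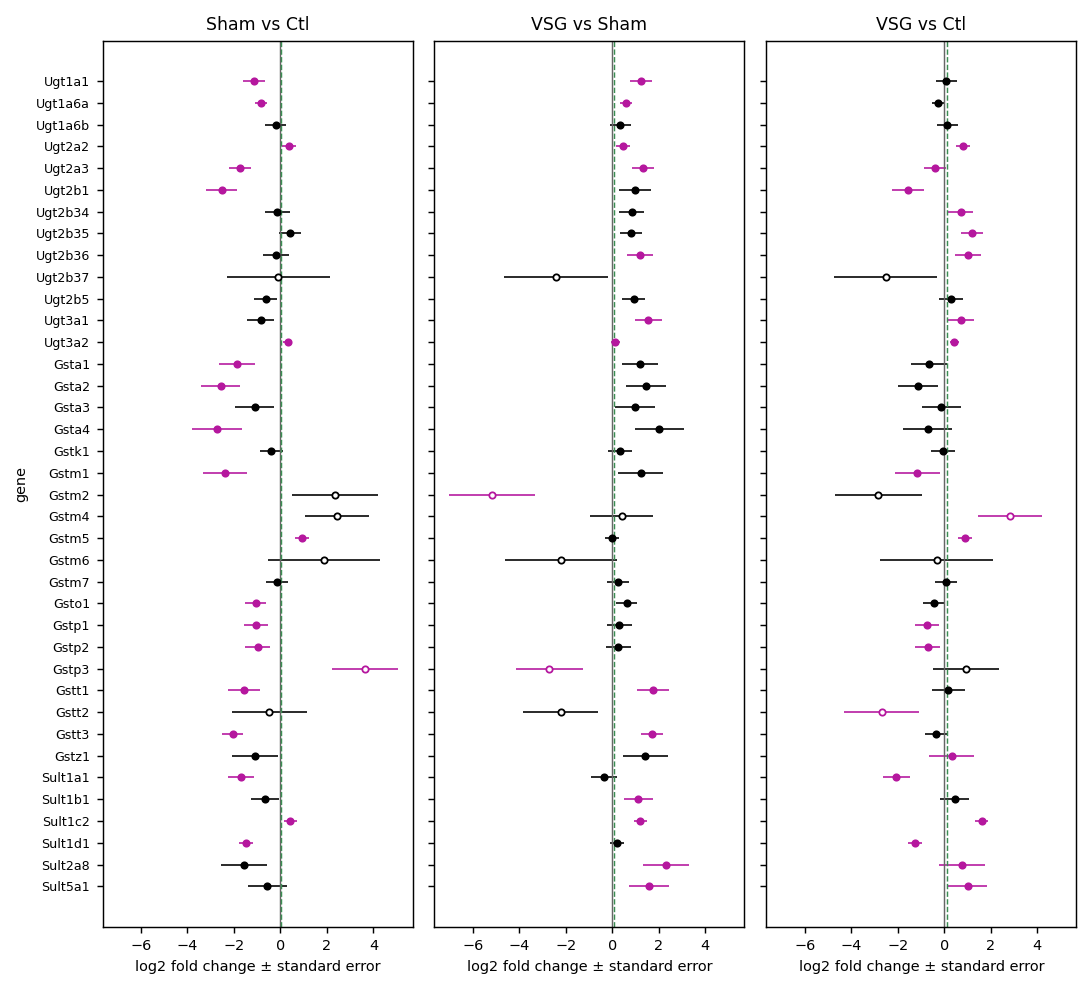
Log2 fold change of each of the 38 tested conjugation genes in Sham vs Ctl, VSG vs Sham and VSG vs Ctl, from limma on log2(FPKM + 1), with its standard error as a bar. Purple marks genes whose groups did not overlap, open circles the 6 genes listed at 0 in at least 1 mouse, and the green dashed line the median of all 9833 genes. Gsta2, Gsta4, Gstm1, Gstt3 and Ugt2b1 lie more than 2 below 0 on the log2 scale in Sham vs Ctl, and none of the 38 passed the FDR.

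The Ugt1 genes share their last exons, so that each gene is a first exon of its own spliced to a common end. The stretch around that joint is shown for Ugt1a1, which conjugates bilirubin, and for Ugt1a6a, which conjugates phenols, as read from the mm9 transcripts. Each line has 60 coding bases in lower case from the gene's own part and 60 in capitals from the shared part, which runs for 741 bases to the stop codon.
Ugt1a1: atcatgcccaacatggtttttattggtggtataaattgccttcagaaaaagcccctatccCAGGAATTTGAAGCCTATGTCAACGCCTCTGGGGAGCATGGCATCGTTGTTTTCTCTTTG
Ugt1a6a: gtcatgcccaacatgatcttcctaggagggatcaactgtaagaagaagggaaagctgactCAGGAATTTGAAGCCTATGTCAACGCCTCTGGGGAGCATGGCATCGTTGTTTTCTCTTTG
Of all windows of 50 bases, the length of the reads, 58.2% in Ugt1a1, 85.4% in Ugt1a6a and 91.0% in Ugt1a6b also occur in other genes, and the split of reads between these genes is therefore uncertain. The same limit holds for Gsta1 and Gsta2, with 89.7% and 48.3% of their windows shared with other genes. It also holds for Ugt2b5, Ugt2b38 and Ugt2b37, with shares of 41.1%, 37.4% and 18.3%.

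Ugt1a1 (mm9 chr1:90108534-90115572, plus strand) had 146 and 154 FPKM in Ctl, 69.0 and 65.6 FPKM in Sham, and 100.3 and 253 FPKM in VSG mice. Both Sham mice were below all other mice, and the Ctl mice lay between the VSG mice. Its log2 fold change was -1.14 with a standard error (SE) of 0.46 in Sham vs Ctl (limma adjusted p = 0.469) and 1.23 with an SE of 0.46 in VSG vs Sham (limma adjusted p = 0.944). In VSG vs Ctl it was 0.09, which turned to -0.074 after scaling to the upper quartile and -0.05 after quantile normalization. Ugt1a6b, another phenol conjugating enzyme, had 149 and 132 FPKM in Ctl, 188 and 78.4 FPKM in Sham, and 145 and 163 FPKM in VSG mice. The 3 groups overlapped for this gene.

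The Ugt2 genes take steroids, bile acids and many drugs. Ugt2b1 (chr5:87345663-87355555, minus strand) had 168 and 173 FPKM in Ctl, 55.1 and 14.7 FPKM in Sham, and 40.6 and 81.2 FPKM in VSG mice. All 4 mice on the high-fat diet were below both Ctl mice, while Sham and VSG overlapped. Its log2 fold change was -2.53 (SE 0.68) in Sham vs Ctl, with a limma adjusted p of 0.354, and -1.55 (SE 0.68) in VSG vs Ctl, with a limma adjusted p of 0.576. Ugt2a3 followed a similar order, with 112 and 111 FPKM in Ctl, 52.9 and 20.2 FPKM in Sham, and 78.3 and 89.0 FPKM in VSG mice. None of its groups overlapped, with VSG between Ctl and Sham, and its log2 fold change was -1.73 (SE 0.47) in Sham vs Ctl and 1.32 (SE 0.47) in VSG vs Sham, at limma adjusted p-values of 0.353 and 0.944.

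The most abundant Ugt genes did not share this pattern. Ugt2b5 had 322 and 333 FPKM in Ctl, 331 and 132.7 FPKM in Sham, and 320.1 and 494 FPKM in VSG mice, with overlap of all groups. Ugt2b36 had 183 and 182 FPKM in Ctl, 273 and 94.7 FPKM in Sham, and 303 and 449 FPKM in VSG mice. Both VSG mice were the highest, whereas the Sham mice lay on both sides of Ctl. Its log2 fold change was 1.01 (SE 0.55) in VSG vs Ctl, with a limma adjusted p of 0.644, and 1.19 (SE 0.55) in VSG vs Sham, with a limma adjusted p of 0.944. Ugt2b34 had 107 and 109 FPKM in Ctl, 162 and 59.5 FPKM in Sham, and 139 and 224 FPKM in VSG mice, with both VSG mice above Ctl and Sham on both sides. Ugt2a2 was low, at 0.218 and 0.399 FPKM in Ctl, 0.980 and 0.422 FPKM in Sham, and 1.13 and 1.46 FPKM in VSG mice, and passed the filter through the VSG mice alone.

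The Ugt3 enzymes use sugar donors other than UDP-glucuronate. Ugt3a2 had 154 and 157 FPKM in Ctl, 186 and 200.3 FPKM in Sham, and 215 and 207 FPKM in VSG mice. Its groups did not overlap in any comparison, in the order Ctl, Sham, VSG, and the log2 fold change of 0.44 (SE 0.20) in VSG vs Ctl had a limma adjusted p of 0.590. The step from Sham to VSG, 0.13 on the log2 scale, became -0.11 after quantile normalization. Ugt3a1, chosen here after its values were seen, had 42.5 and 43.5 FPKM in Ctl, 12.5 and 44.0 FPKM in Sham, and 74.6 and 67.6 FPKM in VSG mice. It is the 1 tested gene with its lowest level in Sham mouse 1.

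Among the Gst genes, the pi class was the most abundant. Gstp1 made up 30.0% to 42.0% and Gstp2 15.6% to 22.2% of all Gst FPKM in a mouse. Their coding sequences have 633 bases each and differ at 12 of them (98.1% identity), and 415 of the 584 windows of 50 bases hold no difference. The first 150 coding bases are shown, as read from the mm9 transcripts, with the 6 bases that differ between the genes in capitals.
Gstp1: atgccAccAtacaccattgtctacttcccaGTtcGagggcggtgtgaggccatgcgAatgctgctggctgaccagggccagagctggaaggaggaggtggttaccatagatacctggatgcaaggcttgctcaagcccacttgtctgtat
Gstp2: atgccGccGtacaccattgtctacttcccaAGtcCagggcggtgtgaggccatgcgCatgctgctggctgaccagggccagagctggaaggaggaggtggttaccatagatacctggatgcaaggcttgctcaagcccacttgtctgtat
A read from the rest of such a stretch fits either gene, and their separate values are uncertain.

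Gstp1 (chr19:4035411-4037921, minus strand) had 1802 and 1871 FPKM in Ctl, 1453 and 537 FPKM in Sham, and 1043 and 1143 FPKM in VSG mice. Gstp2, its neighbour (chr19:4040291-4042221, minus strand), had 949 and 973 FPKM in Ctl, 833 and 285 FPKM in Sham, and 570.4 and 596 FPKM in VSG mice. All 4 mice on the high-fat diet were below both Ctl mice for both genes, and the VSG mice lay between the Sham mice. The log2 fold change of Gstp1 was -1.05 (SE 0.52) in Sham vs Ctl and -0.75 (SE 0.52) in VSG vs Ctl, with limma adjusted p-values of 0.526 and 0.706. The ratio of Gstp2 to Gstp1 was 0.520 to 0.574 in the 6 mice.

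Gstm1, the leading mu class enzyme (chr3:107815173-107820891, minus strand), had 816 and 939 FPKM in Ctl, 467 and 59.2 FPKM in Sham, and 376 and 404 FPKM in VSG mice. Here too all 4 mice on the high-fat diet were below both Ctl mice, and VSG lay within the range of Sham. The log2 fold change was -2.38 (SE 0.96) in Sham vs Ctl and -1.17 (SE 0.96) in VSG vs Ctl, at limma adjusted p-values of 0.469 and 0.745. The first was -3.86 without Sham mouse 1 and -0.91 without Sham mouse 2. Gstm5 had the opposite order, with 8.56 and 5.12 FPKM in Ctl, 13.7 and 13.2 FPKM in Sham, and 14.9 and 11.9 FPKM in VSG mice. The 4 mice on the high-fat diet were above both Ctl mice, and the log2 fold change was 0.92 (SE 0.29) in Sham vs Ctl (limma adjusted p = 0.401) and 0.90 (SE 0.29) in VSG vs Ctl (limma adjusted p = 0.475).

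Over all 38 tested genes, 7 were lower in each of the 4 mice on the high-fat diet than in both Ctl mice (18.4%, beside 9.18% of all genes), namely Gstm1, Gstp1, Gstp2, Sult1a1, Sult1d1, Ugt2a3 and Ugt2b1. Another 4 were higher in each of them (10.5%, beside 17.0% of all genes), namely Gstm5, Sult1c2, Ugt2a2 and Ugt3a2, or 3 of 37 without Ugt2a2. Sums of some marker lists moved with the same split. The sum of the periportal hepatocyte markers was 4275 and 4190 FPKM in Ctl and 1359 to 2723 FPKM in the 4 mice on the high-fat diet. That of the 11 Kupffer cell markers was 53.8 and 35.4 FPKM in Ctl and 104.5 to 344 FPKM in the others. Neutrophil and T and B cell marker sums were also higher in all 4, the latter narrowly. The hepatocyte, pericentral, sinusoidal endothelial, stellate, cholangiocyte and acute phase sums did not separate Ctl from the other 4. The part of marker genes in these differences was not tested.

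The theta class enzymes Gstt1 and Gstt3 were lowest in Sham. Gstt1 had 148 and 135 FPKM in Ctl, 97.7 and 22.3 FPKM in Sham, and 145 and 179 FPKM in VSG mice, and Gstt3 had 22.1 and 16.8 FPKM in Ctl, 5.49 and 2.65 FPKM in Sham, and 10.2 and 21.1 FPKM in VSG mice. Both Sham mice were below all 4 others for each gene, and Ctl and VSG overlapped. For Gstt3 the log2 fold change was -2.06 (SE 0.46) in Sham vs Ctl, at a limma adjusted p of 0.285, and 1.70 (SE 0.46) in VSG vs Sham, at a limma adjusted p of 0.904. For Gstt1 it was -1.57 (SE 0.69) and 1.76 (SE 0.69), at limma adjusted p-values of 0.498 and 0.944. Leaving out Sham mouse 1 gave -2.62 and 2.80 for Gstt1, and leaving out Sham mouse 2 gave -0.53 and 0.71. Of the windows of 50 bases in Gstt3, 18.3% also occur in other transcripts, whereas none of those in Gstt1 do.

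Gstz1, the maleylacetoacetate isomerase of tyrosine breakdown, had 330.0 and 292 FPKM in Ctl, 411 and 50.8 FPKM in Sham, and 360.1 and 419 FPKM in VSG mice. Sham mouse 1 was above both Ctl mice and Sham mouse 2 far below them, so the log2 fold change of -1.09 (SE 0.97) in Sham vs Ctl was 0.40 without Sham mouse 2. Gsta3, an alpha class enzyme that detoxifies the aflatoxin epoxide in mice, had 772 and 522 FPKM in Ctl, 680.3 and 128 FPKM in Sham, and 451 and 751 FPKM in VSG mice. Its groups overlapped in every comparison, and the change of -1.10 (SE 0.84) in Sham vs Ctl was 0.10 without Sham mouse 2.

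For 6 of the 38 tested genes (15.8%, beside 16.0% of all genes) the table lists a 0 in some mice, and the fold changes of these genes rest on those zeros and enter the family medians above. Gstm2 was listed at 50.0 and 0 FPKM in Ctl, 59.3 and 20.8 FPKM in Sham, and at 0 in both VSG mice. Gstm4 was listed at 15.3 and 0 FPKM in Ctl, 34.1 and 12.4 FPKM in Sham, and 31.7 and 24.0 FPKM in VSG mice. Gstp3 was listed at 0 and 3.17 FPKM in Ctl, 19.3 and 31.2 FPKM in Sham, and 14.2 and 0 FPKM in VSG mice. In each of these genes a 0 stands beside a clear value in another mouse, and a 0 in an FPKM table can also be a failed estimate. Gstt2 was listed at 36.3 and 32.0 FPKM in Ctl, 39.9 and 14.6 FPKM in Sham, and 28.2 and 0 FPKM in VSG mice. The same holds for Gstm6 and Ugt2b37, at up to 46.7 and 31.9 FPKM. The count of 6 genes at an unadjusted p under 0.05 in VSG vs Sham includes Gstm2.

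**Figure D4:**
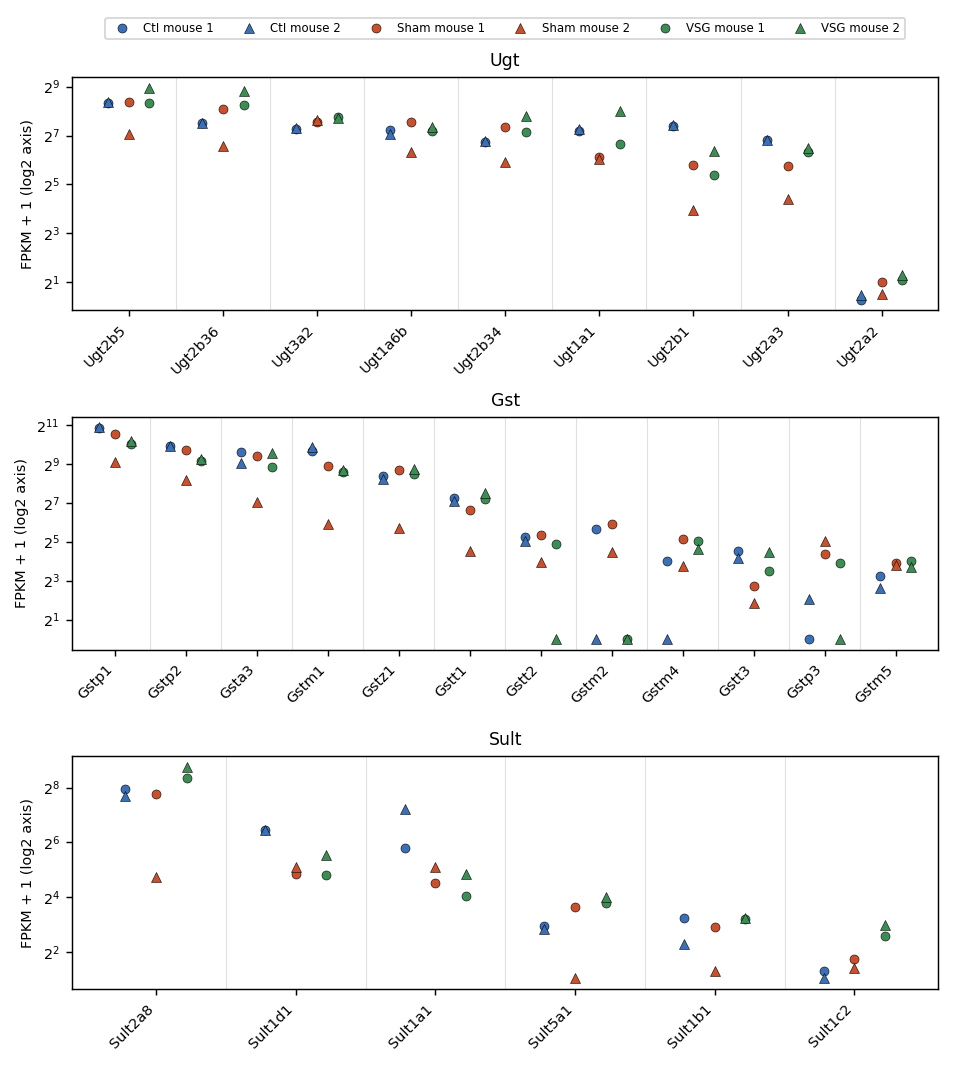
FPKM + 1 (log2 axis) of 27 named Ugt, Gst and Sult genes, with a point for each mouse (circles for mouse 1 and triangles for mouse 2 of a group). Points at the foot of the Gst panel are values listed at 0. For Sult1d1 both Ctl mice, at 86.0 and 86.1 FPKM, lie above the other 4, and for Sult1c2 both VSG mice, at 4.93 and 6.93 FPKM, lie above the other 4.

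In each comparison the smallest limma p-value of all conjugation genes was that of a Sult gene. Sult1d1, which sulfates catecholamines (chr5:87983670-87998052, minus strand), had 86.0 and 86.1 FPKM in Ctl, 27.9 and 33.2 FPKM in Sham, and 26.9 and 45.5 FPKM in VSG mice. All 4 mice on the high-fat diet were below Ctl, and Sham and VSG overlapped. Its log2 fold change was -1.47 (SE 0.31) in Sham vs Ctl, with a limma adjusted p of 0.270, and -1.27 (SE 0.31) in VSG vs Ctl, with a limma adjusted p of 0.357. In VSG vs Sham it was 0.20 (SE 0.31), with a 95% interval of -0.59 to 0.98.

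Sult1a1, the main phenol sulfotransferase (chr7:133816379-133819946, minus strand), had 54.2 and 148 FPKM in Ctl, 22.1 and 33.0 FPKM in Sham, and 15.5 and 27.9 FPKM in VSG mice. The Ctl mice were the highest and the furthest apart. Its log2 fold change was -1.70 (SE 0.58) in Sham vs Ctl (limma adjusted p = 0.419) and -2.06 (SE 0.58) in VSG vs Ctl (limma adjusted p = 0.406).

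Sult1c2 (chr17:53968962-53985664, minus strand) was ordered from Ctl through Sham to VSG, at a low level. It had 1.45 and 1.04 FPKM in Ctl, 2.36 and 1.65 FPKM in Sham, and 4.93 and 6.93 FPKM in VSG mice, with no overlap between any groups. The log2 fold change was 1.62 (SE 0.28) in VSG vs Ctl, the smallest limma p of the 38 genes in that comparison (limma adjusted p = 0.271), and 1.20 (SE 0.28) in VSG vs Sham (limma adjusted p = 0.814).

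Sult2a8, a bile acid sulfotransferase and the most abundant Sult gene in every mouse except Sham mouse 2, had 244 and 205 FPKM in Ctl, 215 and 25.6 FPKM in Sham, and 328 and 432 FPKM in VSG mice. Both VSG mice were the highest, Sham mouse 1 lay between the Ctl mice, and its log2 fold change was 2.31 (SE 0.99) in VSG vs Sham, with a limma adjusted p of 0.944. This value was 3.83 without Sham mouse 1 and 0.80 without Sham mouse 2. Sult5a1 had 6.66 and 6.20 FPKM in Ctl, 11.3 and 1.04 FPKM in Sham, and 12.9 and 15.1 FPKM in VSG mice, again with both VSG mice highest and Sham on both sides of Ctl. Sult1b1, which sulfates thyroid hormones, had 8.49 and 3.86 FPKM in Ctl, 6.43 and 1.48 FPKM in Sham, and 8.12 and 8.44 FPKM in VSG mice, with VSG above Sham and inside the range of Ctl.

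The remaining 16 genes above 0 did not pass the filter, and 12 of them stayed under 1 FPKM in every mouse, at 0.695 FPKM or less. The other 4 reached 1 FPKM in a single mouse and are named here after their values were seen. Ugt2b38 was listed at 76.3 FPKM in Ctl mouse 2 and at 0 in all others, and Gstm3 at 6.46 FPKM in Sham mouse 2 and at 0 in all others. Sult1e1, the estrogen sulfotransferase, had 0 and 0.521 FPKM in Ctl, 0.198 and 5.39 FPKM in Sham, and 0.621 and 0.181 FPKM in VSG mice, so that its one value above 1 FPKM was again in Sham mouse 2. Ugt2a1 had 0.977 and 1.18 FPKM in Ctl and was listed at 0 in the 4 mice on the high-fat diet.

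FAIRE peaks were then examined at the start sites of these genes. Peaks had been combined over both mice of a group, so that there is no spread between mice and no test. Of the 36 tested genes found in the mm9 annotation, 21 in Ctl (58.3%), 26 in Sham (72.2%) and 25 in VSG mice (69.4%) had a peak within 1000 bp of a start site, beside 89.8%, 89.6% and 90.9% of all tested genes. The Gstp3 and Ugt2a2 genes were not located. Gstm1 had one of the strongest peaks, within the top 3.54%, 4.77% and 3.51% of the Ctl, Sham and VSG lists by signal. Gstz1, at 4.75%, 5.56% and 2.55%, was similar in rank. The peak of Ugt1a1 ranked at 39.8% in Ctl, 22.9% in Sham and 48.6% in VSG mice, and that of Sult1a1 at 29.3%, 12.1% and 20.2%. The lists differ in length, so that ranks are not compared between groups.

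Sult1c2 had a promoter peak in the Sham list (chr17:53985654-53985857, ranked at 81.1%) and in the VSG list (chr17:53985674-53985859, ranked at 78.4%), and none in the Ctl list. Peaks at Gsta1, Gsta3 and Ugt2b34 were also present in the Sham and VSG lists alone, and one at Gstm2 in the Sham list alone. When the same number of peaks was taken from each list, the Sham peak of Sult1c2 was no longer included. Sult1d1, Sult2a8, Ugt2a3, Ugt2b1, Ugt2b36, Ugt2b37, Ugt2b5, Ugt3a1, Ugt3a2 and Gstp2 had no promoter peak in any list.

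**Figure D5:**
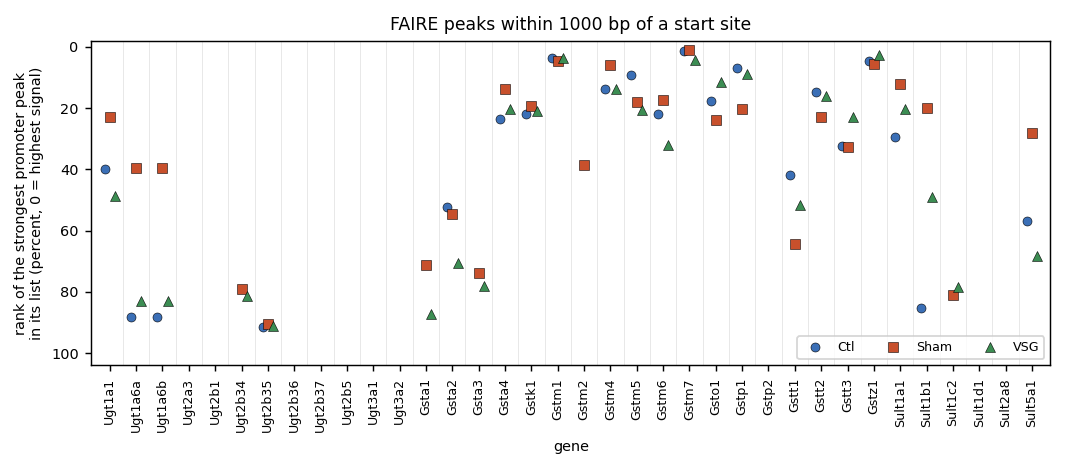
Rank of the strongest FAIRE peak within 1000 bp of a start site in the peak list of each group (vertical axis in percent, 0 for the highest signal), for the 36 tested genes found in the annotation. A gene without a point has no such peak. The mu class genes Gstm1 and Gstm7 rank within the top 4.77% in all 3 lists, whereas most Ugt2 and all Ugt3 genes have no point.

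The 250 bases before the start site are shown for genes with a strong peak (Gstm1), an intermediate peak (Ugt1a1 and Sult1a1), a weak peak in the Sham and VSG lists alone (Sult1c2) and no peak (Ugt2b1 and Sult1d1). They are from mm9, on the strand of the gene. Capitals mark matches on either strand to the cores of the antioxidant response element of Nrf2 (TGACNNNGC), the dioxin response element of Ahr (GCGTG), the half-site bound by CAR and PXR (AGTTCA) and the TATA box (TATAAA).
Gstm1, chr3:107820892-107821141, minus strand: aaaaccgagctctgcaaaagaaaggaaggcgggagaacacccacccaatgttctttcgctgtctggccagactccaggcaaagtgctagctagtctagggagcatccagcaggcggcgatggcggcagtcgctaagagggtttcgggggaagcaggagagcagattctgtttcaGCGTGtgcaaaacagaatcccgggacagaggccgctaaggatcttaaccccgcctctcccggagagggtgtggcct
Ugt1a1, chr1:90108284-90108533, plus strand: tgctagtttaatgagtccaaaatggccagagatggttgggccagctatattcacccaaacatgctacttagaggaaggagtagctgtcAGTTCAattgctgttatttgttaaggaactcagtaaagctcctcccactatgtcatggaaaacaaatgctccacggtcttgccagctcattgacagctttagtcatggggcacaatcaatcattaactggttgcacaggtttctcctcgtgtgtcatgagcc
Sult1a1, chr7:133819947-133820196, minus strand: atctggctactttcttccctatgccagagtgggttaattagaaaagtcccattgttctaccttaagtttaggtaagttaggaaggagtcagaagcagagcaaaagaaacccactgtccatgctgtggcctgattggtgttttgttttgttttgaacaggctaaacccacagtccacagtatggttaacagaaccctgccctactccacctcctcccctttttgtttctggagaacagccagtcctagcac
Sult1c2, chr17:53985665-53985914, minus strand: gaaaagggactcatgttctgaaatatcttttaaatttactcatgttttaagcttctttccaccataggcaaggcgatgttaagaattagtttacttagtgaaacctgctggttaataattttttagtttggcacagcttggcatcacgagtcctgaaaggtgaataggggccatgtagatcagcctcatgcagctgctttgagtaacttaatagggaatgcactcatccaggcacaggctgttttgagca
Ugt2b1, chr5:87355556-87355805, minus strand: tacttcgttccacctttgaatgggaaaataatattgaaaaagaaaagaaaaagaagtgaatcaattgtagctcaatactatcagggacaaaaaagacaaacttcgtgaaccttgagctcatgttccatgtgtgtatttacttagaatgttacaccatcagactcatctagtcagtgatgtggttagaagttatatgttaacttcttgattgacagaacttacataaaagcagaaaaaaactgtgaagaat
Sult1d1, chr5:87998053-87998302, minus strand: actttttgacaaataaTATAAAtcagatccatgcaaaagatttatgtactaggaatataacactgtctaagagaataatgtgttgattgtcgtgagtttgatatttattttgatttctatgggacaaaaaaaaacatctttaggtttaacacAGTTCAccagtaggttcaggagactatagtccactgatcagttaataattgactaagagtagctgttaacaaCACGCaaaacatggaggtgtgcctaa
No base in these windows belongs to 2 matches. GCGTG lay 72 to 76 bases before the start of Gstm1 and, on the opposite strand, 22 to 26 bases before that of Sult1d1. AGTTCA lay 157 to 162 bases before Ugt1a1 and 93 to 98 bases before Sult1d1, which also held TATAAA at 229 to 234 bases. The windows of Ugt2b1, Sult1a1 and Sult1c2 held none of these letters. GC content was 57.6% in the window of Gstm1 and 32.4% in that of Sult1d1. Among windows of the same length before 22220 protein-coding genes, 10.1% held TGACNNNGC, 33.0% GCGTG, 10.7% AGTTCA and 12.3% TATAAA. For the 36 tested conjugation genes these shares were 8.33%, 16.7%, 16.7% and 13.9%.

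Genes that supply, accompany or control the conjugating enzymes were read from lists. None of the tested genes of 11 lists passed the FDR of limma in any comparison. The lists held 5 tested genes of UDP-glucuronate supply, 10 of glutathione supply and reduction and 8 of sulfate donor supply and removal. Next were 3 microsomal glutathione transferases and related genes, with Alox5ap among them. The others were 14 other conjugating enzymes, 7 exporters of conjugates, 13 regulators, 10 Nrf2 targets, 4 Ahr targets, 12 male-biased and 10 female-biased liver genes. Of the 92 different genes in these 11 lists, 11 in Sham vs Ctl (12.0%, beside 11% of all genes), 10 in VSG vs Sham (10.9%, beside 4.86%) and 10 in VSG vs Ctl (10.9%, beside 9.58%) had an unadjusted p under 0.05. The median log2 fold change in Sham vs Ctl was 0.06, -0.52, 0.32, 0.57, -0.25, -0.04, -0.42, -0.01, -0.61, -1.004 and -0.996 in these lists, in the same order. Gnmt, the glycine methyltransferase of the liver, had the smallest limma p among the other conjugating enzymes in Sham vs Ctl, with 1287 and 1205 FPKM in Ctl, 413 and 261 FPKM in Sham, and 375 and 546 FPKM in VSG mice (log2 fold change -1.92, SE 0.35, in Sham vs Ctl, limma adjusted p = 0.215).

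Among 13 tested CAR and PXR targets, Cyp2b10 fell in Sham vs Ctl and in VSG vs Ctl. Cyp2b10, the classical target of CAR, had 8.46 and 8.81 FPKM in Ctl, 0.0389 and 0.00900 FPKM in Sham, and 0.135 and 0 FPKM in VSG mice, and its log2 fold change on the scale of log2(FPKM + 1) was -3.23 (SE 0.23) in Sham vs Ctl (limma adjusted p = 0.0245) and -3.18 (SE 0.23) in VSG vs Ctl (limma adjusted p = 0.0289). Cyp3a25, a cytochrome P450, was listed at 0 in both Ctl mice, at 60.5 and 35.1 FPKM in Sham and at 114 and 724 FPKM in VSG mice. It also passed the FDR in VSG vs Ctl (limma adjusted p = 0.0945), but that call rests on the zeros of both Ctl mice, which can be failed estimates, and gives no direction. The paper instead reports Cyp3a25 as lower in Sham than in Control mice, with a reversal after VSG. The median log2 fold change of the CAR and PXR targets, Cyp3a25 included, was -0.42 in Sham vs Ctl, 1.84 in VSG vs Sham and 0.08 in VSG vs Ctl. For all genes these medians were 0.03, 0.08 and 0.13. The sum over the 14 genes listed was 3096 and 2952 FPKM in Ctl, 1742 and 704 FPKM in Sham, and 1908 and 4095 FPKM in VSG mice. Sham mouse 2 was again the lowest, and Sham mouse 1 was close to VSG mouse 1. Of the receptors themselves, Nr1i2, which encodes PXR, had 38.4 and 36.1 FPKM in Ctl, 23.2 and 30.2 FPKM in Sham, and 12.5 and 17.0 FPKM in VSG mice, in an order without overlap. Its log2 fold change was -1.29 (SE 0.25) in VSG vs Ctl, with a limma adjusted p of 0.308. Nfe2l2, which encodes Nrf2, had the reverse order, with 17.3 and 17.3 FPKM in Ctl, 21.9 and 23.9 FPKM in Sham, and 28.4 and 29.7 FPKM in VSG mice, at a limma adjusted p of 0.394 in VSG vs Ctl. Nr1i3, which encodes CAR, was listed at 0 in all 6 mice, which can also be a failed estimate and does not show that CAR is absent.

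The sum of the Ahr targets was 219 and 176 FPKM in Ctl, 108 and 19.0 FPKM in Sham, and 109 and 277 FPKM in VSG mice, most of it Cyp1a2, a pericentral cytochrome P450. As with the conjugating enzymes, Sham mouse 2 had the lowest sum. Tat, the tyrosine aminotransferase, was the 1 hepatocyte marker past the FDR, at 1376 and 1477 FPKM in Ctl, 210.2 and 188 FPKM in Sham, and 233 and 283 FPKM in VSG mice (limma adjusted p = 0.0453 in Sham vs Ctl and 0.0684 in VSG vs Ctl). None of the other 9 marker lists held a gene past the FDR of limma, and of their 64 tested genes 27 in Sham vs Ctl (42.2%, beside 11% of all genes), 15 in VSG vs Sham (23.4%, beside 4.86%) and 16 in VSG vs Ctl (25.0%, beside 9.58%) had an unadjusted p under 0.05.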

How the data were processed

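RNA-seq of 6 livers and FAIRE-seq of the same livers were analysed from the tables the authors deposited. Per the labels poly(A) RNA was taken, whereas the methods describe depletion of ribosomal RNA. From 50-base reads placed on mm9 by TopHat2, the authors derived FPKM values for each RefSeq transcript using Cufflinks. FAIRE reads were aligned with Bowtie, peaks and their signal came from F-seq run by the authors at a feature length of 250 bp, and IDR selected the peaks found again in the other mouse. The deposited comparison tables hold the authors' DESeq2 results, and the site lists hold positions alone, so neither was used.

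Transcripts were matched to symbols through RefSeq (34610 of 34933), FPKM was summed per gene, and genes with at least 1 FPKM in at least 2 mice were fitted with limma 3.58.1 in R 4.3.3 on log2(FPKM + 1), with a variance trend and 1 spread for the 3 groups, at a BH-adjusted FDR of 10%. Fold changes on this scale understate those of low genes. On simulated data for VSG vs Sham with 9832 genes, 39 of 100 genes changed by 2 and 62 of 100 changed by 3 on the log2 scale were recovered, and 14 of the 115 genes called (12.2%) were unchanged ones. Nothing in the labels says how the mice of a group relate in litter or cage, and p-values measure the spread between these mice.

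The members and the gene lists were chosen with earlier results of these data known. Genes named are the 6 most abundant of each family and the 3 with the smallest p in each direction of each comparison. From each other list, genes past the FDR were named, or the one with the smallest p in a direction. Promoters, sequences and shared windows were taken from NCBIM37 (mm9) with its annotation, with pysam 0.24.0. The alternatives were other pseudocounts, filters and scalings, transcripts kept apart, no variance trend, 2 groups alone, a replicate block, leaving out each mouse, and other windows, overlaps and peak selections. Leaving out mice for the counts of genes without overlap, and genes listed at 0 for the family medians, was chosen after seeing the data.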

Additional observations from a re-analysis of the deposited data

How the results depend on the processing

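Most alternatives left the results in place, apart from those that left out a mouse. For the conjugation genes past the FDR, no filter gave 1 in Sham vs Ctl (Ugt2a1) and 2 in VSG vs Ctl (Ugt2a1 and Sult3a1), and leaving out a mouse gave 0 to 5 in Sham vs Ctl and in VSG vs Sham. For all genes past the FDR, Sham vs Ctl had 64 with no filter, 14 with a filter at 5 FPKM and 0 to 168 without a mouse. VSG vs Sham had 8 with a pseudocount of 0.1, 1 with 5, 2 with a filter at 5 FPKM, 9 by transcript, 0 from the 2 groups alone (325 at an unadjusted p under 0.05), 4 (3 higher) after quantile normalization and 0 to 77 without a mouse. VSG vs Ctl had 10 with a filter at 5 FPKM and 0 to 35 without a mouse. The causes were not tested.

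The replicate numbers do not pair the mice, with correlations of same-numbered deviations of 0.113, 0.0574 and 0.0311. The replicate block gave 9, 0 (505 at an unadjusted p under 0.05) and 10 genes in the 3 comparisons and 0 conjugation genes.

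The Ugt median in Sham vs Ctl was -0.64 with no filter, -0.42 with a filter at 5 FPKM and -0.42 without genes listed at 0, which brought the Gst median in VSG vs Sham to 1.07. The Sult medians with no filter were 0.01 in Sham vs Ctl, 0.025 in VSG vs Sham and 0.025 in VSG vs Ctl, since 11 genes near 0 were added, and 0.63 in VSG vs Sham with a pseudocount of 5. Without a mouse, the medians in Sham vs Ctl ran from -0.89 to 0.26 for Ugt, -1.75 to 0.10 for Gst and -1.44 to 0.038 for Sult genes. In VSG vs Sham they ran from 0.27 to 1.26, -0.26 to 1.10 and 0.32 to 1.64, and for Ugt in VSG vs Ctl from 0.006 to 0.50. Counts of genes without overlap ran from 6 to 15 (higher) and 16 to 27 (lower) in Sham vs Ctl, 13 to 30 and 3 to 12 in VSG vs Sham, and 12 to 19 and 8 to 18 in VSG vs Ctl. In the VSG list, 15 genes kept a promoter peak among the 50% of peaks with the highest signal.

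Single genes turned in 4 cases under another scaling, with Ugt3a2 at -0.11 (VSG vs Sham, quantile), Ugt1a1 at -0.074 and -0.05 (VSG vs Ctl, upper quartile and quantile) and Ugt1a6b at -0.036 (VSG vs Ctl, upper quartile). In Sham vs Ctl, leaving out a mouse turned the sign of 10 of the 27 named genes, with log2 fold changes of Gsta3 -2.30 to 0.099, Gstm2 -0.49 to 5.18, Gstt2 -1.17 to 0.22, Gstz1 -2.59 to 0.40, Sult1b1 -1.45 to 0.13, Sult5a1 -1.86 to 0.73, Ugt1a6b -0.83 to 0.42, Ugt2b34 -0.85 to 0.58, Ugt2b36 -0.94 to 0.58 and Ugt2b5 -1.29 to 0.015. In VSG vs Sham, leaving out a mouse turned the sign of 11 of the 27 named genes, with log2 fold changes of Gsta3 -0.22 to 2.17, Gstm1 -0.26 to 2.70, Gstm4 -0.30 to 1.10, Gstm5 -0.17 to 0.13, Gstp1 -0.41 to 1.02, Gstp2 -0.52 to 1.03, Gstt2 -4.66 to 0.21, Gstz1 -0.081 to 2.91, Sult1a1 -0.77 to 0.044, Sult1d1 -0.17 to 0.56 and Ugt1a6b -0.29 to 0.96. In VSG vs Ctl, leaving out a mouse turned the sign of 6 of the 27 named genes, with log2 fold changes of Gsta3 -0.49 to 0.24, Gstp3 -1.03 to 2.895, Gstt3 -0.85 to 0.13, Sult1b1 -0.032 to 0.93, Ugt1a1 -0.57 to 0.76 and Ugt2b5 -0.031 to 0.59. Over all 38 tested genes the sign turned for 16, 14 and 12 genes in the 3 comparisons, and for another 15, 21 and 13 the log2 fold change kept its sign but moved by over 1.5 times. The fold changes of Gstm2, Gstm4, Gstp3 and Gstt2 rest on values listed at 0.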
